A study of Rattus norvegicus with 16 samples.

Results

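Vegfa, Flt1, Hif1a, Nos3 and Edn1, a set of 5 genes of blood vessel growth and endothelial tone, were followed in rat hearts after streptozotocin. They were picked by Ensembl identifier (ENSRNOG00000019598, ENSRNOG00000000940, ENSRNOG00000008292, ENSRNOG00000009348 and ENSRNOG00000014361, in that order), 5 of 23918 genes in the count tables, and all 5 passed the filter on low counts that kept 14175 genes. RNA was sequenced from the drained hearts of 16 adult male Wistar rats, 1 library per rat, in 3 groups set by dose. Control rats (n = 4) had no agent, at a dose of 0 mg/kg. D55 rats (n = 6) and D100 rats (n = 6) had a single tail vein injection of streptozotocin, 55 or 100 mg/kg, under halothane at a body weight of 240 to 260 g. Streptozotocin kills insulin-producing beta cells and thereby makes rodents diabetic; blood glucose above 13 mmol/L was checked in injected rats after 24 hours, and hearts were taken after 4 days. The study's title asks how the severity of diabetes shows in cardiac transcripts.

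Vegfa encodes the main secreted growth factor of blood vessels, which cardiomyocytes and other cells release when oxygen is short. Flt1 is an endothelial receptor that binds Vegfa tightly, and its soluble form acts as a decoy. Hif1a encodes the oxygen-regulated subunit of a transcription factor that binds short sites with the core ACGTG or GCGTG; it is controlled largely through the stability of its protein, and Vegfa and Edn1 are among its known targets. Nos3 is the endothelial enzyme that makes the vasodilator nitric oxide, while Edn1 encodes the precursor of the vasoconstrictor peptide endothelin.

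The bases just before the annotated start were read for all 5 genes from RefSeq on GRCr8, matched by symbol. These are shown for the factor itself, Hif1a, for Edn1 and for Nos3. The choice followed their levels: those of Hif1a and Nos3 ran in opposite directions across the hearts. Over the 16 libraries Edn1 was correlated with neither at an adjusted p under 0.05. A link between the motifs and the levels was not tested. Each stretch is 250 bases long and runs 5′ to 3′ on the gene's strand. Both strands were searched for the core of the hypoxia response element, spelled ACGTG or GCGTG. They were also searched for the motif bound by Sp factors, GGGCGG, and for a TATA box spelled TATAAA, and capitals mark every match to any of these.
Hif1a, GRCr8 chr6:98359648-98359897, plus strand: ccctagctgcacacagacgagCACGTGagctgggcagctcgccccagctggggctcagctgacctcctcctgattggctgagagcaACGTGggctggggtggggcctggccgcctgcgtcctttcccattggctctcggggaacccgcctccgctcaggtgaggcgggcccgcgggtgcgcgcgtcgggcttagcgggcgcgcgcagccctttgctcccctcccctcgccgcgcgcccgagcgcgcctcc
Edn1, GRCr8 chr17:22666688-22666937, minus strand: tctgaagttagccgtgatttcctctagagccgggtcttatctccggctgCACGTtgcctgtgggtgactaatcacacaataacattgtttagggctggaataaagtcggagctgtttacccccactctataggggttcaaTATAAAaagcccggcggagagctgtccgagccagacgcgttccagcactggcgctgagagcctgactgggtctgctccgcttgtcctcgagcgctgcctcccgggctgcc
Nos3, GRCr8 chr4:11706582-11706831, minus strand: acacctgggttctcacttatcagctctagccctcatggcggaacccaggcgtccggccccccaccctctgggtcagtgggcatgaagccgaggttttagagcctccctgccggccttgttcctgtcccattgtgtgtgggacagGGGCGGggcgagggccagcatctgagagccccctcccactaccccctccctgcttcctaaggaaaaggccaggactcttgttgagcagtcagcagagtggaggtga
The Hif1a stretch held 3 matches to ACGTG, of which a pair overlap on opposite strands in a palindrome and count as 1 each. Edn1 held 1 match to ACGTG and 1 to TATAAA, and Nos3 held 1 match to GGGCGG and 0 to the other motifs. Flt1 held 1 match to GCGTG, 3 to GGGCGG and 1 to TATAAA. Vegfa has 2 annotated starts; the upstream one held 3 matches to GGGCGG and the other held 0 matches to any of these motifs. Among 33469 stretches of the same length before annotated starts, 16.6% held ACGTG, 25.9% GCGTG, 30.5% GGGCGG and 12.9% TATAAA. A match is a description of these letters only.

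Library totals were 26.2 to 48.3 M estimated counts in control, 18.5 to 48.4 M in D55 and 4.69 to 25.6 M in D100 hearts. The 10 most abundant genes of the series took 49.7% ± 7.60 of the counts in control (SD, n = 4), 43.6% ± 11.1 in D55 and 60.8% ± 5.90 in D100 (SD, n = 6 each). D55 B and E stood apart with 30.1% and 30.4%, and D100 F was the shallowest library. Genes carry identifiers alone and the reference table used here pairs 0 of them with a symbol, so other pathway genes and markers of heart muscle or endothelium were not examined. In whole hearts, fewer cells of a type and less RNA per cell cannot be told apart.

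After the higher dose, none of the 5 genes differed from untreated hearts past the threshold, and the same was true after the lower dose. Between the doses, Nos3 alone passed, lower in D100 than in D55, and this call was lost without D55 B and E. Flt1 was the steadiest of the 5 transcripts. Edn1 lay above all control values in 5 of 6 D100 hearts and had 0 counts in the sixth. Levels below are in CPM, each count scaled to its library's total with TMM factors, and fold changes come from edgeR's quasi-likelihood fit over all 16 libraries, with p-values adjusted by Benjamini-Hochberg over the 14175 genes and a threshold of 0.05.

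**Figure D1:**
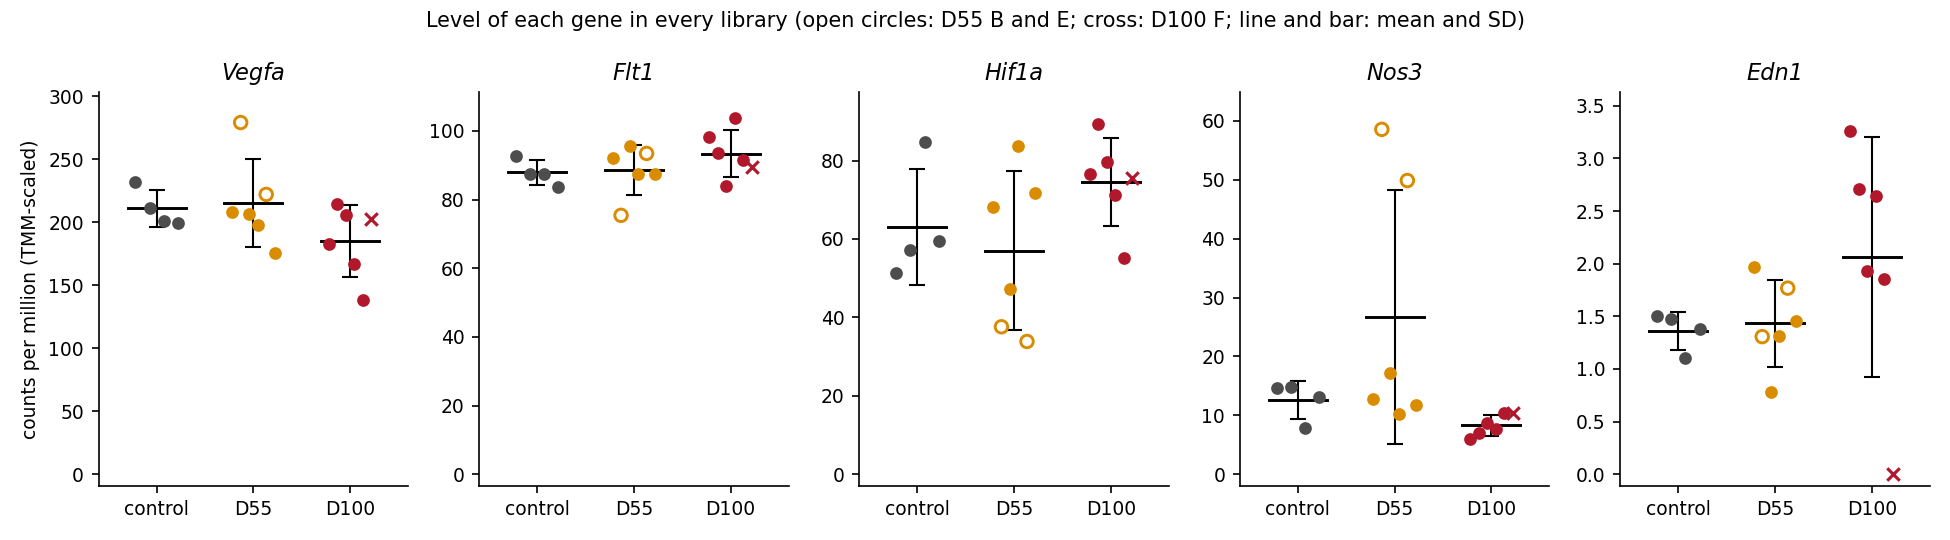
Level of each gene in CPM (vertical axes from 0, 1 panel per gene) in every control, D55 and D100 library; points are libraries, lines and bars are means and SDs, open circles are D55 B and E, and the cross is D100 F. Nos3 stands at 58.6 and 49.9 CPM in D55 B and E and between 5.91 and 17.3 CPM in the other 14 libraries, and Edn1 is at 0 in D100 F alone.

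Of the 5 genes, 0 were called in D100 against control by edgeR, where 4.38% of all tested genes were called, and 0 had an unadjusted p under 0.05. DESeq2 called 0 of the 5 as well (10.1% of all genes), while limma-voom with quality weights called 4 of 5 (Hif1a and Edn1 higher, Vegfa and Nos3 lower), in a fit that called 67.7% of all genes. In D55 against control edgeR called 0 of 5, against 0.0635% of all genes, with 1 at an unadjusted p under 0.05 (Nos3), and DESeq2 and limma-voom also called 0 (0.621% and 3.68% of all genes). In D100 against D55 edgeR called 1 of 5, against 35.6% of all genes, and DESeq2 and limma-voom (46.6% and 49.9% of all genes) each called the same gene, Nos3. The median log2 fold change of the 5 genes was 0.09 in D100 against control (-0.03 over all tested genes), 0.03 in D55 against control (0.03 over all) and 0.08 in D100 against D55 (-0.03 over all).

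**Figure D2:**
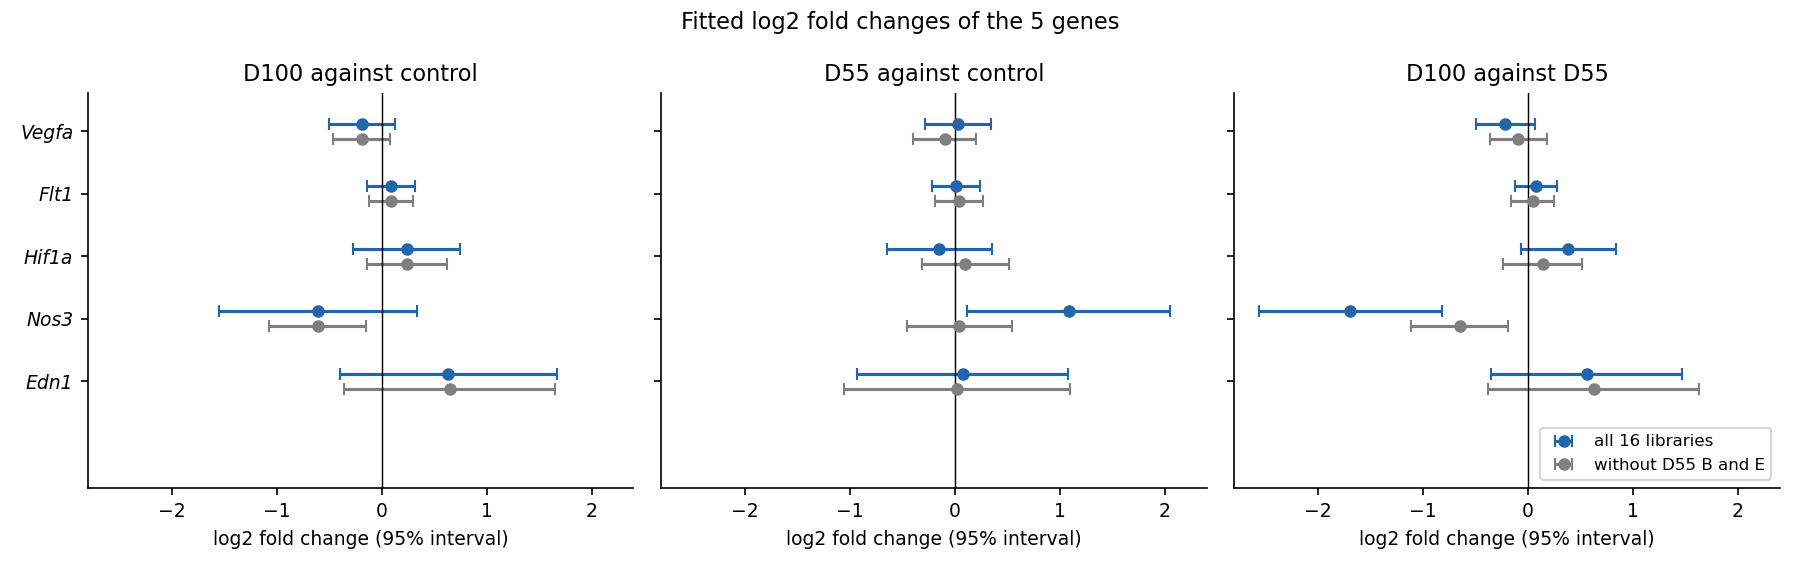
Fitted log2 fold changes (horizontal axes) of the 5 genes in the 3 comparisons, with 95% intervals, over all 16 libraries (blue) and without D55 B and E (grey). The interval of Nos3 in D100 against D55 runs from -2.56 to -0.82 with all libraries and from -1.11 to -0.19 without D55 B and E.

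Vegfa, the growth factor, stood at 232, 212, 201 and 199 CPM in the control hearts. D55 hearts ran from 176 to 279 CPM with a median of 208, and D100 hearts from 138 to 215 with a median of 193. The 3 groups overlapped, with the highest value in D55 B and the lowest in D100 E. The mean was 185 ± 28.9 CPM in D100 and 211 ± 15.1 CPM in control (SD, n = 6 and 4), a log2 fold change of -0.19 (95% interval -0.50 to 0.12, edgeR adjusted p = 0.435). D55 averaged 215 ± 35.0 CPM (SD, n = 6), which differed from control by a log2 fold change of 0.03 (interval -0.29 to 0.34, adjusted p = 0.952) that was -0.10 without D55 B and E. Between the doses the log2 fold change was -0.22 (interval -0.50 to 0.07, adjusted p = 0.191). Without scaling factors the value against D55 was -0.89 and passed (adjusted p = 0.0088), in a fit that called 49.5% of all genes and placed the median of all genes at -0.65.

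Flt1, the receptor, had 92.8, 87.6, 87.5 and 83.7 CPM in controls. It ran from 75.4 to 95.5 CPM in D55 hearts, with a median of 89.8, and from 83.8 to 104 CPM in D100 hearts, with a median of 92.6. The groups overlapped nearly throughout, and the lowest value was in D55 B. The SD was 4.26% of the mean in control, 8.14% in D55 and 7.40% in D100. Fitted log2 fold changes were 0.09 in D100 against control (interval -0.14 to 0.31, edgeR adjusted p = 0.618), 0.01 in D55 against control (-0.22 to 0.24, adjusted p = 0.976) and 0.08 in D100 against D55 (-0.13 to 0.28, adjusted p = 0.523). Without scaling factors the D100 values turned to -0.37 against control (adjusted p = 0.201, with 8.27% of all genes called) and -0.55 against D55 (adjusted p = 0.0194). The median of all genes was then -0.48 and -0.65, so relative to that median Flt1 stayed on the higher side.

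Hif1a, the oxygen-regulated factor, had 51.3, 57.2, 84.6 and 59.4 CPM in controls. D55 hearts ran from 33.9 to 83.8 CPM, median 57.7, and D100 hearts from 55.1 to 89.2 CPM, median 76.1. The lowest values of the series were those of D55 E and B (33.9 and 37.6 CPM), and the highest control value lay within the D100 range. D100 averaged 74.5 ± 11.3 CPM and control 63.1 ± 14.8 CPM (SD, n = 6 and 4; log2 fold change 0.24, interval -0.27 to 0.75, edgeR adjusted p = 0.54). Against D55 (57.0 ± 20.3 CPM, SD, n = 6) the D100 difference was 0.39 on the log2 scale (interval -0.07 to 0.84, adjusted p = 0.151), and it was 0.14 without D55 B and E (adjusted p = 0.628). Leaving out D55 D took it past the threshold (0.53, adjusted p = 0.0479), in a fit that called 47.6% of all genes. In D55 against control the log2 fold change was -0.15 (interval -0.65 to 0.36, adjusted p = 0.824) and turned to 0.10 without D55 B and E. Without scaling factors the sign in D100 turned to -0.20 against control and -0.18 against D55, again above the medians of all genes given for Flt1, and a covariate for the top 10 share turned it to -0.22 and -0.28.

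Nos3, the source of endothelial nitric oxide, had 14.7, 14.8, 7.91 and 13.1 CPM in controls. In D55 hearts it was 12.8, 58.6, 17.3, 10.2, 49.9 and 11.8 CPM in A to F, and D100 hearts ran from 5.91 to 10.3 CPM with a median of 8.17. D55 B and E thus stood far above every other library, while the other 4 D55 hearts averaged 13.0 ± 3.04 CPM (SD, n = 4), close to the 12.6 ± 3.22 CPM of controls (SD, n = 4). Nos3 fell to 8.32 ± 1.79 CPM in D100, against 26.7 ± 21.6 CPM in D55 (SD, n = 6 each), or -1.69 on the log2 scale (SE 0.41, interval -2.56 to -0.82; edgeR adjusted p = 0.0158). The highest D100 value, 10.3 CPM, and the lowest D55 value, 10.2 CPM, overlapped narrowly. Without D55 B and E the log2 fold change was -0.65 (SE 0.22, adjusted p = 0.137), in a fit that called 0.888% of all genes. With D100 F left out as well it was -0.71 (adjusted p = 0.0763), with 2.48% of all genes called.

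Against control, Nos3 in D100 differed by a log2 fold change of -0.61 (interval -1.55 to 0.34, edgeR adjusted p = 0.406). The same value without D55 B and E, -0.61, had a narrower interval (-1.07 to -0.15, adjusted p = 0.0784), with 10.8% of all genes called. It was -0.67 and passed when D100 F was also left out (adjusted p = 0.0472), in a fit with 19.8% of all genes called. D55 against control gave 1.09 (interval 0.12 to 2.05, adjusted p = 0.554), which came to 0.04 without D55 B and E. The estimated count of Nos3 was whole (closer than 0.01 to an integer) in 0 of 16 libraries, with D55 B at that limit (4259.01). Reads of Nos3 were therefore divided with similar sequences. This makes its level less certain than those of Flt1 and Hif1a, whole in 16 of 16.

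Edn1, the endothelin precursor gene, gave few counts, 0 to 111 per library. Controls had 1.501, 1.47, 1.10 and 1.38 CPM. D55 hearts ran from 0.785 to 1.97 CPM with a median of 1.39, and the D100 hearts A to F had 3.26, 2.71, 1.93, 2.64, 1.85 and 0 CPM. All of D100 A to E lay above the highest control, and D100 F was the lowest library of the series. Its 0 counts allow a level of up to 0.619 CPM (3 counts, counting error only), while at the levels of the other D100 hearts it would have held 8.97 to 15.8 counts. The log2 fold change was 0.64 in D100 against control (interval -0.39 to 1.67, edgeR adjusted p = 0.424), 0.07 in D55 against control (-0.93 to 1.08, adjusted p = 0.96) and 0.56 in D100 against D55 (-0.35 to 1.47, adjusted p = 0.292).

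Those Edn1 values turned on D100 F. Without it Edn1 averaged 2.48 ± 0.589 CPM in D100 (SD, n = 5), against 1.36 ± 0.181 CPM in control (SD, n = 4) and 1.43 ± 0.413 CPM in D55 (SD, n = 6). The log2 fold change was then 0.86 against control (SE 0.28, edgeR adjusted p = 0.0784, with 4.85% of all genes called) and 0.77 against D55 (SE 0.24, adjusted p = 0.0236, with 47.3% called). Leaving out D55 B and E too gave 0.85 against control, which passed (adjusted p = 0.0458, with 19.8% called), and 0.83 against D55, which no longer passed (adjusted p = 0.0869, with 2.48% called). Without scaling factors the difference with all libraries was 0.06 against control and turned to -0.16 against D55.

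Ratios of 2 genes within a library need no scaling factor, and 3 were compared between groups on the log2 scale with 1 count added to each gene. They depend on gene length and say nothing of which gene is higher, so the values below serve to compare libraries and groups within 1 ratio, not genes. The exact two-sided permutation tests were adjusted over 9 comparisons, and 0 of the 9 passed.

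Vegfa over Flt1, the ligand against its receptor, was 1.32, 1.27, 1.20 and 1.25 in controls and ran from 1.01 to 1.89 in D55 and from 0.59 to 1.29 in D100. D100 A, D and E lay below every other heart. The D100 mean of 0.97 ± 0.29 (SD, n = 6) was lower than the control mean of 1.26 ± 0.05 (SD, n = 4) by 0.29, a difference that did not pass (exact permutation p = 0.081, adjusted 0.214).

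Vegfa over Hif1a, the target against the factor, lay between 1.25 and 2.18 in control hearts, between 1.24 and 2.89 in D55 and between 1.23 and 1.42 in D100 hearts. Its SD was 0.39 in control, 0.71 in D55 and 0.07 in D100 (n = 4, 6 and 6), so that D100 hearts were the most alike and sat at the low end of the other groups. The differences of D100 were -0.45 against control (exact permutation p = 0.0286, adjusted 0.205) and -0.67 against D55 (exact permutation p = 0.0455, adjusted 0.205). Without D55 B and E the difference from D55 was -0.26 (exact permutation p = 0.114, adjusted 0.257).

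Edn1 over Nos3, the vasoconstrictor gene against the vasodilator enzyme, ran from -3.31 to -2.79 in controls and from -5.47 to -2.68 in D55 hearts. It was -0.84, -1.35, -2.14, -1.51, -2.45 and -5.67 in D100 A to F. D100 A to E lay above all 10 other hearts. The value of D100 F, with 0 counts of Edn1, is set by the count added and came to -6.66 with 0.5 counts and -3.46 with 5 counts in place of 1, so its rank was not measured. With all libraries the D100 difference was 0.82 against control (exact permutation p = 0.4, adjusted 0.514) and 1.55 against D55 (exact permutation p = 0.0952, adjusted 0.214). With 0.5 and 5 counts added the difference from control was 0.66 and 1.15 (exact permutation p = 0.648 and 0.0571, adjusted 0.729 and 0.129), and that from D55 was 1.39 and 1.88 (exact permutation p = 0.19 and 0.0173, adjusted 0.343 and 0.129). Without D55 B and E the difference from D55 was 0.91 (exact permutation p = 0.357, adjusted 0.514). Without D100 F it was 1.49 against control (exact permutation p = 0.0159, adjusted 0.0714) and 2.21 against D55, which passed (exact permutation p = 0.00433, adjusted 0.039).

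Nos3 and Flt1, both endothelial genes, did not run together. The log2 ratio of Nos3 over Flt1, chosen after its values were seen and not tested, was -3.46 to -2.57 in control. It was -0.36 and -0.91 in D55 B and E, -3.10 to -2.46 in the other D55 hearts and -4.04 to -3.09 in D100.

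**Figure D3:**
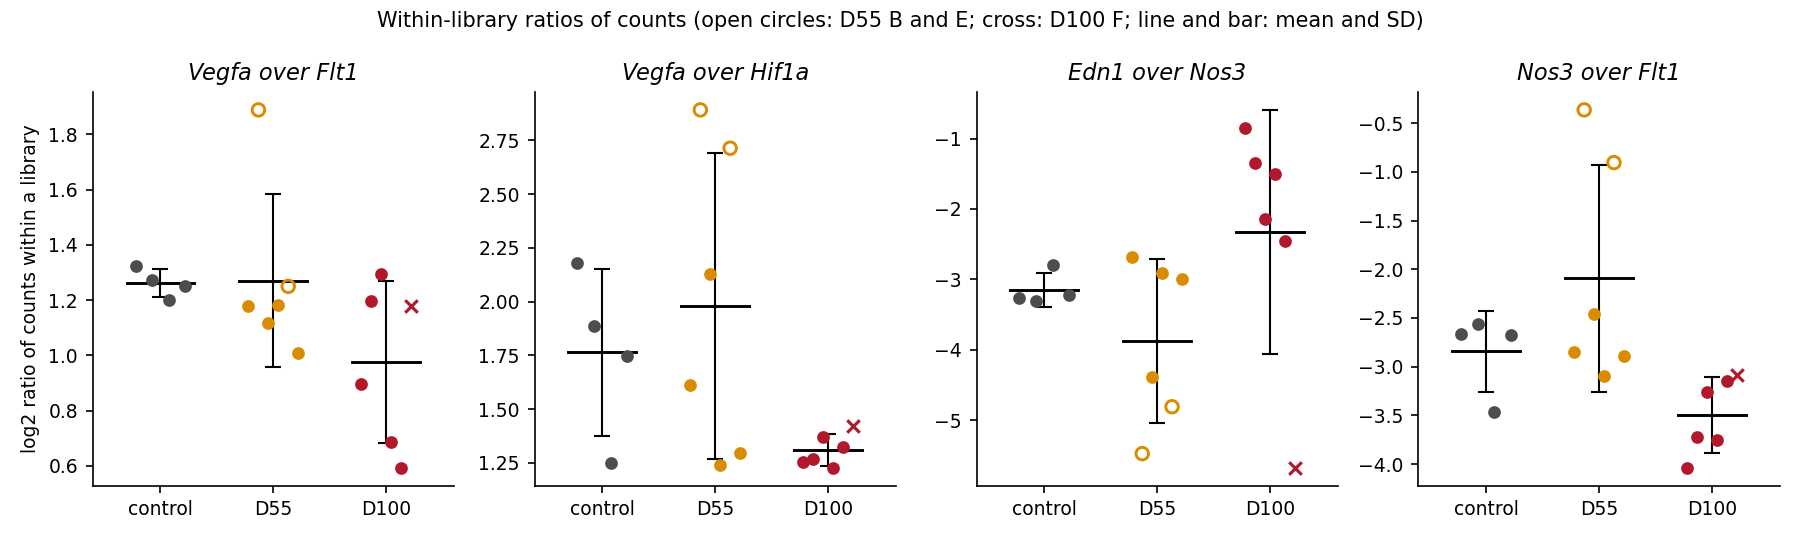
Within-library log2 ratios of counts (vertical axes, 1 panel per ratio, axes not starting at 0) in control, D55 and D100 hearts; points are libraries, lines and bars are means and SDs, open circles are D55 B and E, and the cross is D100 F. In Edn1 over Nos3, D100 A to E lie at -2.45 to -0.84 and D100 F, with 0 counts of Edn1, at -5.67 (1 count added), and in Vegfa over Hif1a the D100 hearts lie close together at 1.23 to 1.42.

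The levels of Nos3 and Hif1a followed the share of counts held by the 10 most abundant genes. For Nos3 Pearson's r of log2 CPM with that share was -0.95 and Spearman's rho -0.97 over 16 libraries, and both gave the lowest p that 100000 permutations allow, 1e-05 (adjusted 2.5e-05 for r over the 5 genes). For Hif1a r was 0.92 (permutation p = 1e-05, adjusted 2.5e-05) and rho 0.87 (permutation p = 4e-05, adjusted 0.0001). Without D55 B and E, the 2 libraries farthest from the median share, r was -0.94 for Nos3 and 0.82 for Hif1a.

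Within D55 alone r was -0.99 for Nos3 and 0.98 for Hif1a (n = 6, exact permutation p = 0.00139 and 0.00278, each adjusted 0.00694), and rho was -1 and 0.94 (exact permutation p = 0.00278 and 0.0167, adjusted 0.0139 and 0.0417). Within D100 alone r was -0.77 for Nos3 (n = 6, exact permutation p = 0.0847, adjusted 0.194), with a rho of -0.71 (exact permutation p = 0.136, adjusted 0.219), and r was -0.13 without D100 E and F. For Hif1a within D100 r was 0.73 (n = 6, exact permutation p = 0.0889, adjusted 0.194) and rho 0.83 (exact permutation p = 0.0583, adjusted 0.219). Without scaling factors a larger share leaves less of the total to all other genes by construction, and r over all libraries was then -0.985 for Nos3, -0.953 for Vegfa and -0.921 for Flt1. For Hif1a it was -0.02 (permutation p = 0.94), with 0.97 within D55 and -0.71 within D100. With the share as a covariate, the Nos3 difference between the doses was 0.09 on the log2 scale (edgeR adjusted p = 0.908), a change of sign.

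Vegfa was related to the share less closely, with r = -0.54 and rho = -0.53 (permutation p = 0.0321 and 0.0358, adjusted 0.0535 and 0.0597), and r was -0.24 without D55 B and E. Within D55 its r was -0.81 and rho -0.89 (n = 6, exact permutation p = 0.0139 and 0.0333, adjusted 0.0231 and 0.0556), and r was -0.50 without D55 B and E. Within D100 r was 0.53 and rho 0.66 (n = 6, exact permutation p = 0.268 and 0.175, adjusted 0.335 and 0.219). Flt1 and Edn1 gave r of 0.35 and 0.16 and rho of 0.17 and 0.48 (permutation p = 0.181 and 0.544 for r, 0.532 and 0.0625 for rho, adjusted p of at least 0.0781). The mean share was highest in D100, and the lowest single values were those of D55 B and E. The groups overlapped, with D100 E and F at 54.6% and 53.4% and control 3 at 59.4%. The share thus moved with the groups only in part, and its role in the differences beyond the covariate fit was not tested.

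**Figure D4:**
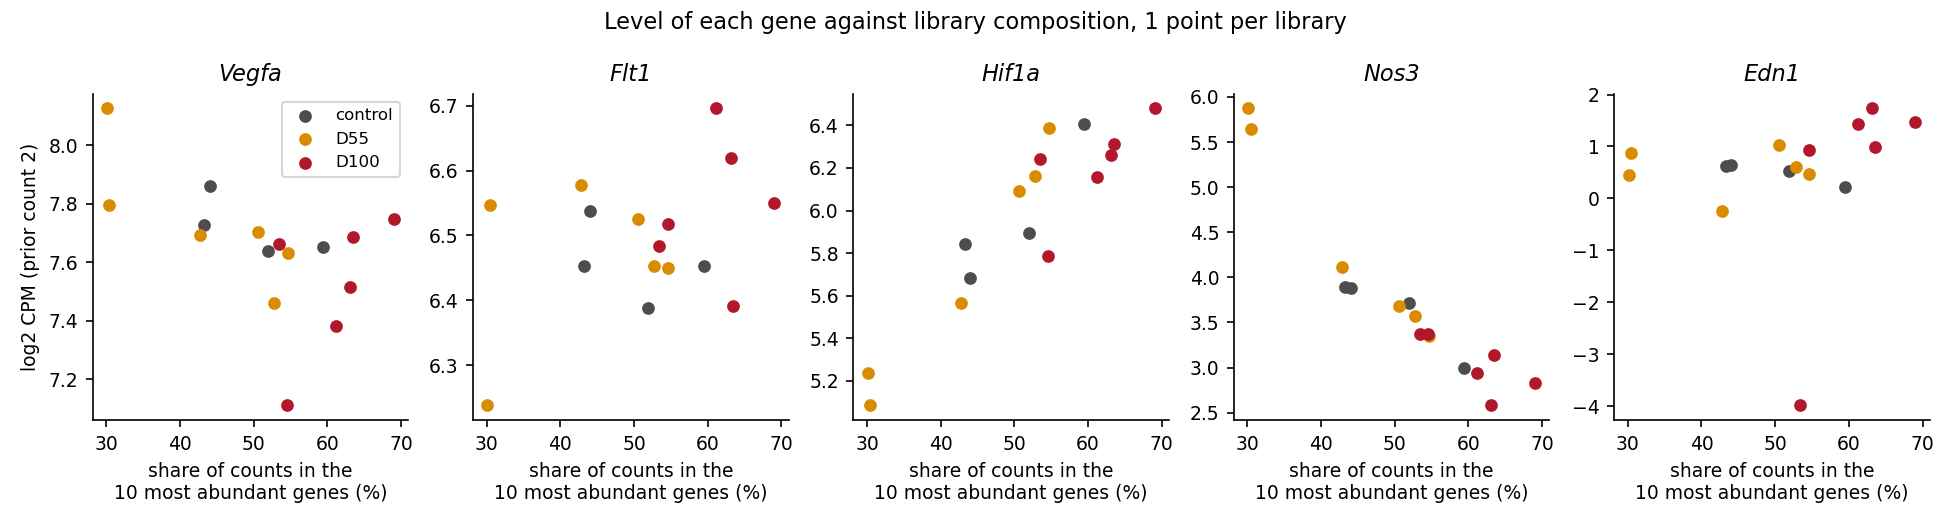
Level of each gene as log2 CPM (vertical axes, not starting at 0) against the share of counts held by the 10 most abundant genes in percent (horizontal axes), 1 point per library, coloured by group. Nos3 runs down and Hif1a runs up along the share, with Pearson's r of -0.95 and 0.92 over 16 libraries, and D55 B and E lie at the left end near 30%.

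Among the 10 pairs of these genes, Hif1a and Nos3 were related past the threshold over the 16 libraries, with r = -0.91 and rho = -0.86 (permutation p = 2e-05 and 6e-05, adjusted 0.0002 and 0.0006). Without D55 B and E r was -0.79. Within D55 r and rho were both -0.94 (n = 6, exact permutation p = 0.00417 and 0.0167, adjusted 0.0417 and 0.167), and within D100 they were -0.54 and -0.49 (n = 6, exact permutation p = 0.264 and 0.356, adjusted 0.66 and 0.593). Over the 16 libraries Hif1a and Nos3 were each correlated with the top 10 share as well (r = 0.92 and -0.95). Without scaling factors these values were -0.02 and -0.985. Whether Hif1a and Nos3 are related apart from that share was not tested, and their correlation without scaling factors was not computed. For Vegfa and Hif1a r was 0.95 and rho 0.94 within D100 (n = 6, exact permutation p = 0.00417 and 0.0167, adjusted 0.0417 and 0.0833), with r = 0.70 without D100 D and E. Within D55 the same pair gave r = -0.72 and rho = -0.83 (n = 6, exact permutation p = 0.0778 and 0.0583, adjusted 0.259 and 0.194). The difference between these correlations was not tested. Nos3 and Edn1 had opposite rank orders over the 6 D100 hearts: rho was -1 (n = 6, exact permutation p = 0.00278, adjusted 0.0278), while r was -0.63 (exact permutation p = 0.157, adjusted 0.66). Nos3 was nearly tied in D100 E and F, at 10.313 and 10.321 CPM from rounded counts. The order of these hearts, and with it a rho of -1, is therefore uncertain. A rho from the estimates before rounding was not computed. Without D100 A and D100 F, of which D100 F had 0 counts of Edn1, r was -0.93.

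By pattern over the 16 libraries, Nos3 was most like ENSRNOG00000019638.7 (r = 0.99) and had r above 0.9 with 1254 genes, 8.85% of those tested. Hif1a was most like ENSRNOG00000010752.5 (r = 0.98) and had 735 such genes, and Edn1 was most like ENSRNOG00000046862.2 (r = 0.97) with 145. On the log2 CPM scale Edn1 lay at -3.98 in D100 F, with 0 counts, and between -0.24 and 1.73 in every other library. The Edn1 matches therefore rest largely on D100 F, and they were not computed without it. Vegfa and Flt1 had 0 genes above 0.9. The closest to Vegfa was ENSRNOG00000007779.7 (r = 0.85), and the closest to Flt1 reached 0.81. These correlations are across libraries that share composition and depth, and they are given as a description.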

How the data were processed

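Heart RNA of 16 rats (TRIzol, 400 ng per library) was sequenced after a stranded preparation of polyadenylated RNA, per the labels' protocols. The authors deposited an estimated count for each gene, from kallisto 0.43.1 and Rnor_6.0, per the submitters' processing notes. Annotation release, strand setting and read filters were not given in the sources used. Kallisto divides reads shared by similar sequences, so an estimate need not be whole. An estimate from 1 to 10000 was judged whole if closer than 0.01 to an integer.

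Estimated counts were rounded. In R 4.3.3 with edgeR 4.0.16, filterByExpr by group, TMM factors and a quasi-likelihood fit with 1 coefficient per group over 16 libraries were used. P-values were adjusted by Benjamini-Hochberg over all genes (threshold 0.05). Log2 CPM used a prior count of 2. The 95% intervals use the fit's moderated degrees of freedom. The edgeR fit was tried on simulated counts with known changes, in which all libraries of a group shared the same profile. That trial does not bear on differences in composition between libraries, such as those of D55 B and E. Library pairs within a group differed by a chi-square per degree of freedom of at least 12.0, so none was a duplicate. The labels name no batch. Each library is a separate rat, per the labels.

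The 5 genes, the ratios and the lists were chosen with earlier results of these data known. The rule named all 5 genes and the gene most like each. Lists of other vascular genes and cell markers, written by symbol, could not be used, because 0 of 47357 rows of the reference table (RefSeq, GRCr8) carry an Ensembl identifier. Alternatives were DESeq2 1.42.0 scaling or none, removal of the top 10 genes, no filter, a filter of 5 CPM in 4 libraries, DESeq2, limma 3.58.1 (voom with quality weights), a robust spread, the compared groups alone, the replicate letter as a block, the share held by the top 10 genes as a covariate, and leaving out single libraries, D55 B and E, or these with D100 F, and for ratios 0.5 or 5 counts added in place of 1. Correlations without scaling factors (0.1 CPM added before the log) were added after seeing the data.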

Additional observations from a re-analysis of the deposited data

Results flagged for a closer look

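Of 24 groups of values examined for a library far from the rest (5 genes and 3 ratios in 3 groups), 3 had one, and chance flags about 1 group in 20. The log2 ratio of Vegfa over Flt1 was 1.89 in D55 B, against 1.25 or less in the other D55 hearts. The log2 ratio of Edn1 over Nos3 was -2.79 in control 3, where the other controls lay between -3.31 and -3.23. The same ratio was -5.67 in D100 F, against -2.45 to -0.84 in the other D100 hearts; D100 F has 0 counts of Edn1, so this value is set by the 1 count added.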

How the results depend on the processing

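Among 422 values of the 5 genes under alternatives, 384 kept their direction and their side of the threshold, 26 changed sign and 14 changed side, with 2 that did both.

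D100 against control: 621 genes were called, and 1172 without scaling factors (90 higher, 1082 lower), 409 without a filter, 1438 by DESeq2, 9594 by limma-voom, 1493 without D55 B and E, 2731 without D100 F too, 1407 with the covariate and 180 to 1086 leaving out 1 library (180 to 213 without control 1, 2 or 4, 298 to 348 without D100 A, B, C or D, 1086 without D100 E). Limma-voom took past the threshold Vegfa (-0.22, adjusted p = 0.0391), Hif1a (0.48), Nos3 (-0.87) and Edn1 (0.66); without D55 B, E and D100 F so did Nos3 (-0.67) and Edn1 (0.85, but 0.83 with adjusted p = 0.0869 against D55). The sign turned without scaling factors for Flt1 (-0.37) and Hif1a (-0.20), and with the covariate for Hif1a (-0.22) and Nos3 (0.35).

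D55 against control: 9 genes were called by edgeR, and 5 without scaling factors, 88 by DESeq2, 522 by limma-voom, 1 with these groups alone, 14 without D55 B and E, 16 without D100 F too, 53 with the covariate and 0 to 15 leaving out 1 library (5 without D55 A, 15 without D55 B, 4 without D55 E or D100 C). The count was 0 without any 1 control or D55 F (593 to 1656 at an unadjusted p under 0.05). Signs turned in limma-voom for Vegfa (-0.19), Flt1 (-0.0148), Hif1a (0.31) and Nos3 (-0.12), without D55 B and E for Vegfa (-0.10) and Hif1a (0.10; without D100 F too -0.10 and 0.10), and with the covariate for Vegfa (-0.0318) and Hif1a (0.0586). Leaving out 1 library gave -0.0582 to 0.0793 for Vegfa, -0.0137 to 0.0555 for Flt1, -0.29 to 0.0266 for Hif1a and -0.0363 to 0.21 for Edn1.

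D100 against D55: 5041 genes were called, and 3018 with these groups alone, 123 without D55 B and E, 342 without D100 F too, 41 with the covariate and 1172 to 6745 leaving out 1 library (1172 without D55 B, 1403 without D55 E, 1721 to 2723 without D100 A, B, C or D); without scaling factors 141 were higher and 6875 lower. Nos3 lost its call without D55 B and E (-0.65), without D100 F too (-0.71, adjusted p = 0.0763) and with the covariate (0.0856); over 29 alternatives its adjusted p was 0.000825 to 0.908. Without scaling factors Vegfa passed (-0.89), and Flt1 both changed sign and passed (-0.55, edgeR adjusted p = 0.0194). Hif1a (-0.18) and Edn1 (-0.16) changed sign in that fit without passing, and Hif1a also changed sign with the covariate (-0.28). Leaving out 1 library gave 0.27 to 0.53 for Hif1a and 0.40 to 0.77 for Edn1. With the replicate letter as a block, edgeR called 0 genes (5916 unadjusted) and Nos3 was -1.34 (adjusted p = 0.055). Libraries of the same letter correlated at -0.50 to 0.63 in their deviations, and 2 of 6 letters were closest to themselves. The labels do not say what a letter stands for, and these few values cannot tell whether libraries of a letter belong together.

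With 0.5 or 5 counts added, no ratio changed its side of the threshold or its sign. Ratios in D55 against control turned without D55 B and E (Vegfa over Flt1 -0.14, Vegfa over Hif1a -0.20), and leaving out 1 library gave -0.12 to 0.061 for Vegfa over Flt1. In D100 against D55 without D55 B and E, Vegfa over Hif1a was -0.26 and Edn1 over Nos3 0.91. Leaving out 1 library gave 1.23 to 2.21 for Edn1 over Nos3 in D100 against D55, and the paired test of the block gave an adjusted p of 0.188 for each ratio. Edn1 had no value under the stricter filter. The cause of these changes was not tested. Few counts limit Edn1, above all in D100 F.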
